A study of Mus musculus with 64 samples.

Results

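The co-stimulatory and checkpoint ligands described here are 7 genes by which macrophages speak to lymphocytes: Cd40, Cd80, Cd86, Icosl, Cd274, Pdcd1lg2 and Cd69. Each gene was read from the probe set that names it alone, and from the brightest one where there was a choice, which only Cd80 offered. They are 7 of the 18820 genes measured this way. The cells were bone marrow-derived macrophages of male mice, 7 to 8 weeks old, of the inbred strains BALB/c and C57BL/6, with no engineered allele named in the labels. They were kept in CSF1 at 10000 U/ml, the growth factor of the lineage, and plated at 200000 cells per well, with treatment on day 7. BALB/c wells were treated with 10 U/ml of IFN-beta, 10 U/ml of IFN-gamma or 5 ng/ml of LPS for 1, 2, 4, 8 or 24 h, and C57BL/6 wells received LPS at 0.5, 5 or 50 ng/ml for the same times. Each strain also had control wells at 0 h. This gave 32 groups of 2 wells, with 1 Affymetrix array of 250 ng total RNA per well.

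CD40 is the receptor by which T helper cells license a presenting cell, and CD80 and CD86 are the B7 ligands of CD28 and CTLA-4. ICOSL, from the gene Icosl, engages ICOS on activated T cells. PD-L1, from Cd274, and PD-L2, from Pdcd1lg2, bind PD-1 and restrain T cells. CD69 is an early activation antigen of leukocytes and no ligand of CD28 or PD-1. In macrophages these genes are known targets of pathogen sensing, in which the receptor TLR4 detects LPS, and of interferon receptors.

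The promoters of 3 genes are shown because these genes took 3 different courses in the data below. Cd274 rose in all 3 BALB/c courses, Icosl rose with LPS in BALB/c, and Pdcd1lg2, whose start lies 43.5 kb from that of Cd274 on the same chromosome, was under the dim limit defined below in 38 of 64 arrays. Cd274 is shown by the rule for promoters, the most calls above 0 h, with 21 of 30, of which 8 rest on the C57BL/6 arrays at 0 h. It had 13 such calls in BALB/c cells, where Cd40 and Cd69 had 14 each. Icosl and Pdcd1lg2 were chosen after their values were seen. The windows are the 250 bases before each annotated start, from RefSeq on build GRCm38.p6. They lie at chr19:29367188-29367437, chr19:29410669-29410918 and chr10:78069118-78069367, each read on the plus strand. Of the 7 genes 4 had an entry in the promoter table, the 3 shown and Cd80. Cd40, Cd86 and Cd69 are named only. Capitals mark matches to the consensus site of NF-kB.
Cd274: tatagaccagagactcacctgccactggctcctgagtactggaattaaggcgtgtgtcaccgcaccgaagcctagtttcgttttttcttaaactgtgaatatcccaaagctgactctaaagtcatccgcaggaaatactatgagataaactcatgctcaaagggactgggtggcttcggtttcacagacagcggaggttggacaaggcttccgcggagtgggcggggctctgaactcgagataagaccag
Pdcd1lg2: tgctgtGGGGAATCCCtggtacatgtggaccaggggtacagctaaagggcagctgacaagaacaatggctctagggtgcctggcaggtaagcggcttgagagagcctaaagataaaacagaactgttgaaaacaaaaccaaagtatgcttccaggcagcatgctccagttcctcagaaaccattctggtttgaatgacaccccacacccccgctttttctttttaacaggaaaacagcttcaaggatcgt
Icosl: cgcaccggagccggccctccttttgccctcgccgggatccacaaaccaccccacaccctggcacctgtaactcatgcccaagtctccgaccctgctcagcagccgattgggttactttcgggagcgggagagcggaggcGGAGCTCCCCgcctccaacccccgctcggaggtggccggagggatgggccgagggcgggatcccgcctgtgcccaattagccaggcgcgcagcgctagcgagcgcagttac
Both strands were searched for the core of the interferon-stimulated response element or ISRE (2 GAAA blocks spaced by 2 bases) and for the NF-kB consensus, with no overlap between the matches found. The Cd274 window held none of these letters, nor did that of Cd80, which is not shown. The Icosl window held GGAGCTCCCC, from 111 to 102 bases before the start, and the Pdcd1lg2 window held GGGGAATCCC, from 244 to 235 bases before it. Of 32851 promoter windows of this length 2.98% held the ISRE letters and 7.25% the NF-kB consensus. A match is a description of the letters and no evidence of binding.

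Values are log2 of the deposited intensity, so a difference of 1 is a 2-fold change, and the level of one gene cannot be set against that of another. A gene was called higher or lower where limma's adjusted p over 18820 genes was under 0.05 and the difference was at least 1 log2. Each difference is given ± SE with n = 2 arrays per group, and the labels do not say that the wells of a group came from separate mice, so p-values measure the spread between wells. No control wells later than 0 h were among the groups, and changes with time in culture are part of each difference from 0 h. In RNA from whole wells, fewer cells with a transcript and less transcript per cell cannot be told apart. All 10 macrophage markers lay over the 40th percentile of all values (4.19 log2, called the dim limit here) in all 64 arrays, with a summed intensity between 33010 and 44239. T cell markers summed to between 168 and 265. Of the 8 measured, Cd3d and Cd3g were under the dim limit in all arrays (highs of 3.95 and 3.73), and Cd4, Cd5 and Cd247 were over it in all (highs of 7.02, 6.55 and 5.87). B cell markers summed to between 147 and 258, and at 0 h to between 225 and 252 in C57BL/6 and between 171 and 185 in BALB/c. Of the 7 measured, 3 were under the dim limit in all arrays, and Cd79b and Cd22 were over it in all (highs of 7.09 and 6.70). NK cell markers reached 338 with IFN-beta at 4 h, from Klrk1. Dendritic cell markers reached 736 with LPS at 24 h in BALB/c, where Ccr7 had its high of 9.32. Clec9a had a high of 7.51 with IFN-gamma at 24 h, and the rest of that list stayed at or under 4.99. Granulocyte markers reached 1005 with LPS at 8 h in BALB/c, where Csf3r had its high of 9.75, and the next highest was Ngp (7.54). The part of all these markers in the results was not tested.

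Some arrays stood apart. Probe sets without a gene parted the arrays into sets of 53 and 11, and both IFN-beta arrays at 4 h were in the smaller one. Gaps between wells were counted, for this count alone, with the difference between these sets taken out of the values. The wells of 5 groups then differed by over 1.5 log2 in 10 or more genes (IFN-gamma at 2 and 4 h in BALB/c, and LPS at 50 and 0.5 ng/ml at 1 h and at 5 ng/ml at 24 h in C57BL/6), although none of the 7 genes was among those. The C57BL/6 arrays at 0 h were high in Cd69, Cd40 and Cd86. BALB/c arrays at 0 h held 4.95 and 4.87 for Cd69 and C57BL/6 arrays 10.13 and 9.89, above both C57BL/6 arrays of every dose at 1 and 2 h, and Cd40 and Cd86 were above all of those too. The other 4 genes were not, among them Icosl (8.63 and 8.49) and Cd80 (8.90 and 8.87). By group means, however, Cd274 too was higher at 0 h (10.15) than at 1 and 2 h of every dose. At 0 h BALB/c minus C57BL/6 was -0.99 for Cd274 and -1.17 for Icosl. The cause was not tested. With these levels in view, C57BL/6 results are led by comparisons of doses at matching times and by later against earlier times, and every value that rests on the C57BL/6 arrays at 0 h says so.

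**Figure D1:**
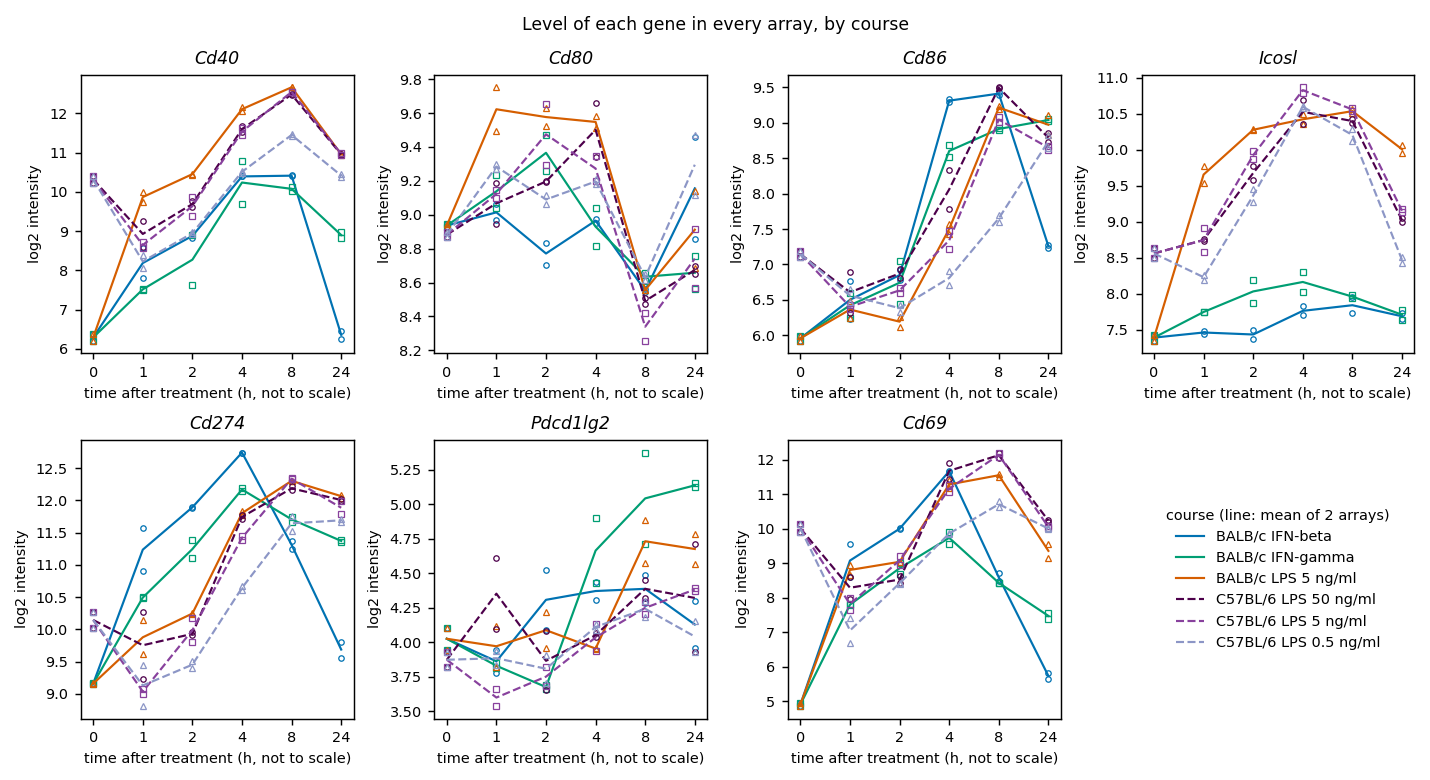
Log2 intensity (vertical axis) of the 7 genes against time after treatment in hours (horizontal axis, not to scale). Points are single arrays, lines join means of 2 arrays, and all courses of a strain start from its 0 h arrays. Cd40, Cd274 and Cd69 climbed in all 3 BALB/c courses, Icosl separated LPS from both interferons, and the C57BL/6 arrays at 0 h stood above the 1 h arrays for Cd40 and Cd69.

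In BALB/c cells 4 of the 7 genes rose with IFN-beta at 1 or more times, against 4.08% of all genes, and none fell, against 3.89%. With IFN-gamma 5 rose, against 3.11% of all genes, and none fell, against 2.27%. With LPS 5 rose, against 7.49%, and none fell, against 9.81%. Cd40, Cd86, Cd274 and Cd69 were called in each of these courses. Pdcd1lg2 was the fifth gene with IFN-gamma and Icosl the fifth with LPS, and Cd80 was called in none. These 3 courses share their 0 h arrays. At an unadjusted p under 0.05 limma put 1 of 35 gene-by-time differences below 0 h with IFN-beta, 0 with IFN-gamma and 1 with LPS.

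**Figure D2:**
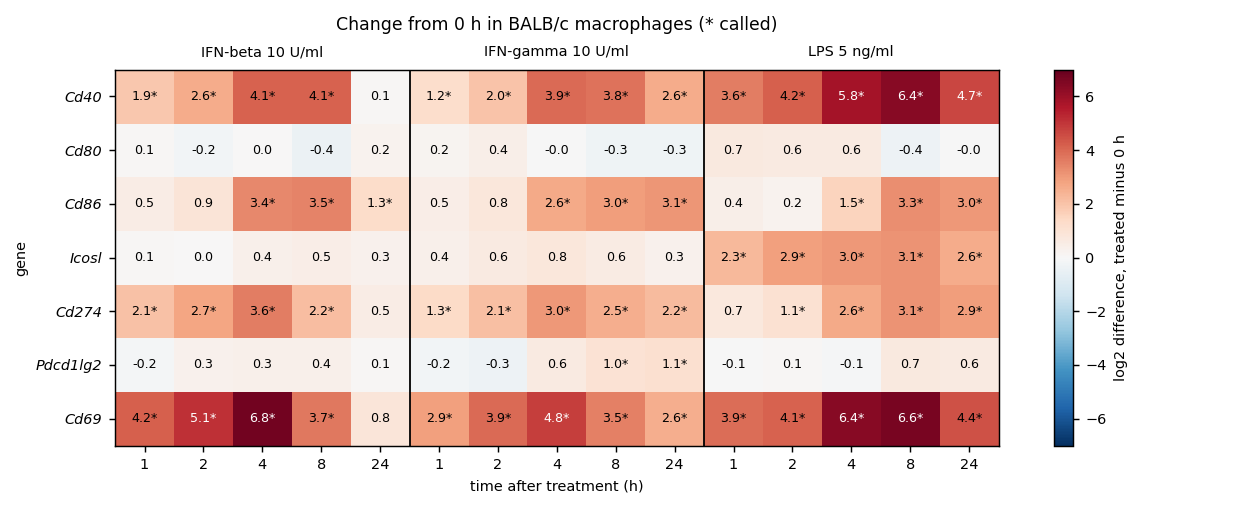
Log2 difference from 0 h in BALB/c cells for each gene (down the page) and time (across), with a star where the gene was called. Among the largest values were 6.76 for Cd69 with IFN-beta at 4 h, 6.64 for Cd69 and 6.37 for Cd40 with LPS at 8 h, while Cd80 stayed within 0.69 log2 of its 0 h mean.

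Cd40, the receptor for T cell help, rose within 1 h in each BALB/c course. After IFN-beta its arrays read 6.21 and 6.37 at 0 h, 7.81 and 8.56 at 1 h, 8.92 and 8.84 at 2 h, 10.39 and 10.39 at 4 h, 10.42 and 10.40 at 8 h and 6.46 and 6.25 at 24 h. The level was high from 4 to 8 h and had returned to overlap the 0 h arrays by 24 h. The rise was 1.90 ± 0.25 at 1 h (adjusted p = 2.16e-06) and 4.12 at 8 h (17.4-fold, adjusted p = 9.46e-16), and the difference at 24 h was 0.07 (interval -0.45 to 0.58, adjusted p = 0.931). In limma fits of the compared arrays alone, the adjusted p at 1 h was 0.0938. After IFN-gamma the arrays read 7.51 and 7.52 at 1 h, 8.91 and 7.63 at 2 h, 9.68 and 10.80 at 4 h, 10.12 and 10.03 at 8 h and 8.83 and 8.97 at 24 h. All 10 lay above both 0 h arrays, but the pairs at 2 and 4 h were wide apart. The rise at 1 h was 1.23 ± 0.25 (adjusted p = 0.00319), with an adjusted p of up to 0.0889 when 1 array was left out, and at 2 h the adjusted p was 0.0704 with the compared arrays alone. The rise at 4 h was 3.95 ± 0.25 (15.4-fold, adjusted p = 3.9e-15), and at 24 h 2.61 remained (adjusted p = 1.96e-10). After LPS they read 10.00 and 9.73 at 1 h, 10.44 and 10.46 at 2 h, 12.16 and 12.05 at 4 h, 12.66 and 12.66 at 8 h and 10.98 and 10.93 at 24 h. This was the highest course of Cd40, with no overlap with the 0 h arrays at any time and its top at 8 h (6.37 ± 0.25, 82.8-fold, adjusted p = 4.61e-22). Over all 32 groups Cd40 spanned 82.8-fold, and of the 31 neighbouring pairs in the order of its levels 13 had both arrays of the higher group above both of the lower.

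Cd86, a B7 ligand of CD28, was first called at 4 h in each course, against 1 h for Cd40. At 2 h the differences from 0 h were 0.89 with IFN-beta (adjusted p = 0.000416), 0.78 with IFN-gamma (adjusted p = 0.00309) and 0.23 with LPS, under the minimum, and with IFN-gamma the 2 h value was 1.09 and called without replicate 2, also in the larger array set alone, and 0.48 without replicate 1. After IFN-beta its arrays read 5.99 and 5.93 at 0 h, 6.23 and 6.77 at 1 h, 6.78 and 6.92 at 2 h, 9.33 and 9.29 at 4 h, 9.43 and 9.39 at 8 h and 7.28 and 7.24 at 24 h. The step came between 2 and 4 h, and at 24 h both arrays were still above 0 h. It rose by 3.35 ± 0.17 at 4 h (adjusted p = 2.14e-18), 3.45 at 8 h (10.9-fold, adjusted p = 2.98e-18) and 1.30 at 24 h (adjusted p = 4.31e-07). After IFN-gamma they read 6.25 and 6.60 at 1 h, 7.05 and 6.44 at 2 h, 8.68 and 8.52 at 4 h, 8.93 and 8.89 at 8 h and 9.06 and 9.02 at 24 h, and the level held to the last time, with a rise of 3.08 ± 0.17 at 24 h (8.44-fold, adjusted p = 3.81e-17). After LPS they read 6.25 and 6.48 at 1 h, 6.12 and 6.27 at 2 h, 7.57 and 7.43 at 4 h, 9.19 and 9.24 at 8 h and 8.83 and 9.11 at 24 h. The LPS arrays were low through 2 h and reached the interferon range at 8 h, when the rise was 3.25 ± 0.17 (9.53-fold, adjusted p = 8.68e-19). At 1 h the difference from 0 h was under the minimum in all 3 courses (0.54 with IFN-beta, 0.47 with IFN-gamma and 0.41 with LPS).

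Cd80, the other B7 ligand of CD28, differed from 0 h by less than 1 log2 at every time in BALB/c cells. Its BALB/c arrays read 8.93 and 8.94 at 0 h. After LPS they read 9.49 and 9.75 at 1 h, 9.52 and 9.63 at 2 h, 9.51 and 9.58 at 4 h, 8.55 and 8.56 at 8 h and 8.69 and 9.14 at 24 h. They lay above 0 h from 1 to 4 h, below it at 8 h and on both sides of it at 24 h. The differences of 0.69 at 1 h, 0.64 at 2 h and 0.61 at 4 h passed the adjusted p (lowest 0.00169) without reaching the minimum size, as did -0.38 at 8 h (adjusted p = 0.0457). The level was called lower at 8 h than at 1 h of LPS (-1.07 ± 0.15, adjusted p = 2.02e-07), a difference that was -0.94 without replicate 2 at 1 h, which also was the value in the larger array set alone, and -0.91 with the array set as a covariate. With IFN-beta the differences from 0 h ran from -0.38 at 8 h to 0.22 at 24 h, and with IFN-gamma from -0.30 at 8 h to 0.43 at 2 h. The dimmer Cd80 probe set gave 0.82 at 1 h and -0.43 at 8 h of LPS. Over all groups Cd80 spanned 2.43-fold, and 6 of 31 neighbouring pairs were apart.

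Icosl, the ligand of ICOS, rose with LPS. The BALB/c arrays read 7.35 and 7.43 at 0 h, 9.53 and 9.77 at 1 h, 10.28 and 10.27 at 2 h, 10.49 and 10.35 at 4 h, 10.56 and 10.51 at 8 h and 9.95 and 10.06 at 24 h. Every LPS array lay above both 0 h arrays, and the rise was 2.26 ± 0.12 at 1 h (4.8-fold, adjusted p = 3.3e-18) and 3.15 at 8 h (8.85-fold, adjusted p = 5.16e-23). After IFN-gamma the arrays read 7.75 and 7.74 at 1 h, 8.19 and 7.86 at 2 h, 8.02 and 8.30 at 4 h, 7.94 and 7.98 at 8 h and 7.78 and 7.64 at 24 h. They were a little above 0 h throughout, and the differences of 0.36 at 1 h, 0.64 at 2 h, 0.77 at 4 h, 0.57 at 8 h and 0.32 at 24 h stayed under the minimum, although those at 2, 4 and 8 h passed the adjusted p (0.000282, 3.55e-06 and 0.000336). After IFN-beta they read 7.48 and 7.43 at 1 h, 7.37 and 7.50 at 2 h, 7.82 and 7.70 at 4 h, 7.73 and 7.95 at 8 h and 7.73 and 7.64 at 24 h, and the differences ran from 0.04 at 2 h to 0.45 at 8 h.

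Cd274, which encodes PD-L1, rose in each BALB/c course and was first called at 1 h with either interferon and at 2 h with LPS. After IFN-beta its arrays read 9.15 and 9.17 at 0 h, 10.91 and 11.57 at 1 h, 11.90 and 11.89 at 2 h, 12.74 and 12.74 at 4 h, 11.37 and 11.25 at 8 h and 9.56 and 9.81 at 24 h. They were highest at 4 h, the top of all 32 groups, where both arrays were in the smaller array set. At 24 h they were near the 0 h arrays without overlap. The rise was 2.08 ± 0.20 at 1 h (adjusted p = 9.79e-10, but 0.0538 with the compared arrays alone), 3.58 at 4 h (12-fold, adjusted p = 2.12e-17) and the difference at 24 h was 0.53 (adjusted p = 0.0803, interval 0.13 to 0.93). After IFN-gamma they read 10.49 and 10.50 at 1 h, 11.11 and 11.38 at 2 h, 12.20 and 12.14 at 4 h, 11.67 and 11.74 at 8 h and 11.39 and 11.36 at 24 h, all above 0 h. The rise reached 3.01 ± 0.20 at 4 h (8.06-fold, adjusted p = 7.62e-15) and was 2.21 at 24 h (adjusted p = 2.59e-11). After LPS they read 9.62 and 10.14 at 1 h, 10.24 and 10.25 at 2 h, 11.78 and 11.83 at 4 h, 12.31 and 12.30 at 8 h and 12.04 and 12.09 at 24 h. Here the level lasted to 24 h, with differences of 0.72 at 1 h (adjusted p = 0.0223, under the minimum), 3.14 ± 0.20 at 8 h (8.84-fold, adjusted p = 2.07e-16) and 2.91 at 24 h (adjusted p = 2.2e-15). Over all groups Cd274 spanned 13.0-fold, and 13 of 31 neighbouring pairs were apart.

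Pdcd1lg2, which encodes PD-L2, was dim, with 38 of 64 arrays under the dim limit of 4.19. BALB/c arrays at 0 h read 3.95 and 4.10. After IFN-gamma they read 3.85 and 3.81 at 1 h, 3.66 and 3.69 at 2 h, 4.90 and 4.43 at 4 h, 5.37 and 4.71 at 8 h and 5.15 and 5.12 at 24 h. The pairs at 4, 8 and 24 h were above 0 h and those at 1 and 2 h below it. The rise was called at 8 h (1.02 ± 0.20, adjusted p = 0.000166) and at 24 h (1.11 ± 0.20, adjusted p = 4.53e-05). Without replicate 1 at 8 h the value was 0.68, and on the scale of log2 of intensity plus 16, which damps dim values, the 2 differences were 0.61 and 0.66 and no longer called. With LPS the largest difference was 0.71 at 8 h (adjusted p = 0.00373), under the minimum, and with IFN-beta it was 0.36 at 8 h. Its neighbour Cd274 had no array under the dim limit.

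Cd69, the activation antigen, moved most. After IFN-beta its arrays read 4.95 and 4.87 at 0 h, 8.60 and 9.56 at 1 h, 10.02 and 9.98 at 2 h, 11.68 and 11.65 at 4 h, 8.71 and 8.48 at 8 h and 5.66 and 5.82 at 24 h. The level rose steeply to 4 h, where both arrays were in the smaller array set, and had mostly gone by 24 h. The rise was 4.17 ± 0.21 at 1 h (18-fold, adjusted p = 2.48e-17), 6.76 at 4 h (108-fold, adjusted p = 3.18e-24) and the difference at 24 h was 0.83, under the minimum (adjusted p = 0.00673). After IFN-gamma they read 7.82 and 7.78 at 1 h, 9.01 and 8.70 at 2 h, 9.56 and 9.92 at 4 h, 8.43 and 8.44 at 8 h and 7.56 and 7.39 at 24 h. Both arrays were above 0 h at each time, and the top was again at 4 h (4.83 ± 0.21, 28.4-fold, adjusted p = 1.21e-19). After LPS they read 8.66 and 8.96 at 1 h, 9.04 and 9.05 at 2 h, 11.17 and 11.40 at 4 h, 11.51 and 11.60 at 8 h and 9.15 and 9.57 at 24 h. Here the top came at 8 h (6.64 ± 0.21, 99.7-fold, adjusted p = 1.3e-24). Over all groups Cd69 spanned 150-fold, the widest range of the 7 genes, and 11 of 31 neighbouring pairs were apart.

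Later and earlier times were compared within each course, which does not involve the 0 h arrays. At 24 h of IFN-beta 4 of 7 genes were lower than at 8 h, against 1.51% of all genes. Cd40 differed by -4.05 log2, Cd69 by -2.85, Cd86 by -2.15 and Cd274 by -1.63 (adjusted p from 4.5e-15 for Cd40 to 6.36e-08 for Cd274). With IFN-gamma 1 gene was lower, against 0.367%, which was Cd40 (-1.18 ± 0.25, adjusted p = 0.00175), and the differences were 0.13 for Cd86, -0.33 for Cd274 and -0.96 for Cd69. With LPS 2 were lower, against 2.78%, namely Cd69 (-2.19 ± 0.21, adjusted p = 1.26e-10) and Cd40 (-1.71 ± 0.25, adjusted p = 9.91e-07). Between 8 h and 1 h, 2 genes were higher with IFN-beta (with a background, the share of all genes called, of 1.57%), Cd86 at 2.91 and Cd40 at 2.23. With IFN-gamma 4 were higher (background 1.2%), Cd40 at 2.56, Cd86 at 2.49, Cd274 at 1.21 and Pdcd1lg2 at 1.21, which was 0.88 without replicate 1 at 8 h. With LPS 4 were higher (background 4.02%), Cd86 at 2.85, Cd40 at 2.80, Cd69 at 2.74 and Cd274 at 2.43, and Cd80 was the 1 gene lower (background 6.7%).

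The interferons were then set against each other at matching times, each at the only dose used. Units of different interferons need not be equal in activity, so type of interferon and effective dose cannot be told apart here. The part of dose in these differences was not tested. Of the 7 genes 5 were lower with IFN-beta than with IFN-gamma at 1 or more times, against 1.98% of all genes, and 1 was higher, against 2.15%. All 5 lower calls fell at 24 h. At that time Cd40 read 6.46 and 6.25 with IFN-beta and 8.83 and 8.97 with IFN-gamma (-2.54 ± 0.25, adjusted p = 6.69e-10). Cd86 read 7.28 and 7.24 with IFN-beta and 9.06 and 9.02 with IFN-gamma (-1.78 ± 0.17, adjusted p = 2.18e-10). No array of one treatment overlapped those of the other. Cd69 differed by -1.74 ± 0.21, adjusted p = 9.95e-08, and Cd274 by -1.68 ± 0.20, adjusted p = 3.16e-08. Pdcd1lg2 differed by -1.01 ± 0.20, adjusted p = 0.000325, a value that was -0.84 without replicate 2 of IFN-beta, -0.99 without replicate 1 of IFN-gamma and -0.61 on the scale of log2 of intensity plus 16. The gene higher with IFN-beta was Cd69, by 1.28 at 1 h, 1.14 at 2 h and 1.93 at 4 h (adjusted p = 0.000405, 0.000994 and 1.14e-08). The 1 h value was 0.79 and not called without replicate 2 of IFN-beta, and 1.76 without replicate 1. With the compared arrays alone its adjusted p at 1 h was 0.457. At 2 h it was 0.99 and not called without replicate 2 of IFN-gamma, and Cd40, not called, was -0.03 without replicate 2 and 1.24 without replicate 1 of IFN-gamma. At 8 h Cd69 differed by 0.16 (interval -0.27 to 0.59) and Cd40 by 0.34 (interval -0.18 to 0.85).

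**Figure D3:**
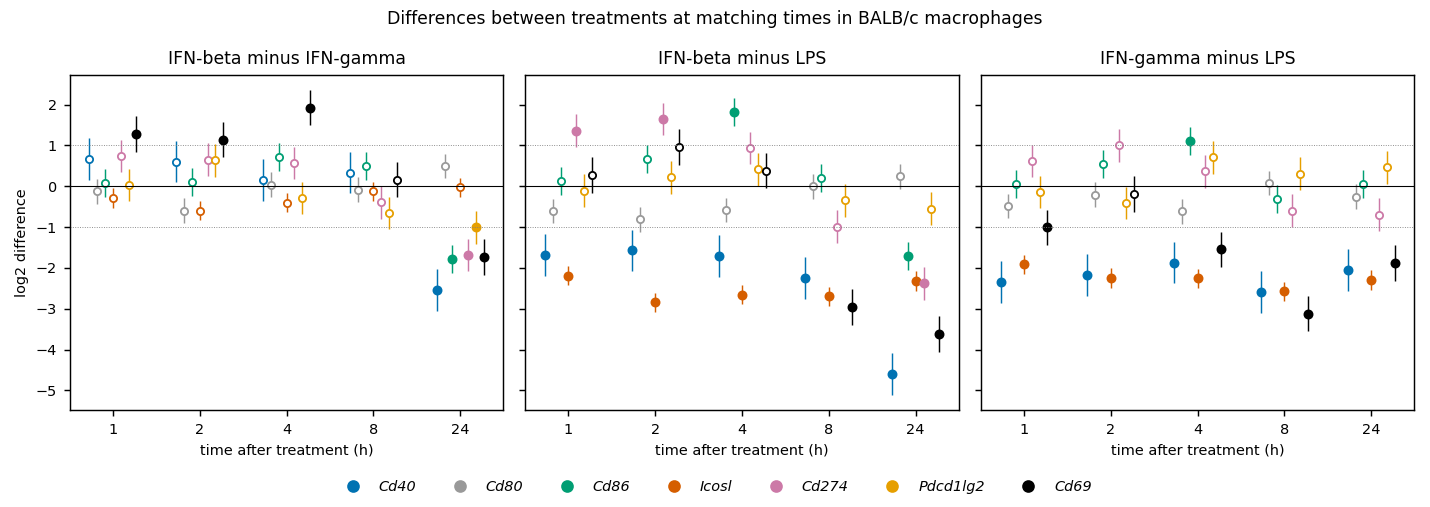
Log2 difference between treatments (vertical axis) at each time in hours (horizontal axis) for the 7 genes, with 95% intervals and n = 2 arrays per group. Filled points were called, open points were not, and dotted lines mark 1 log2. IFN-beta lay below IFN-gamma at 24 h for 5 genes, and Cd40 and Icosl lay below LPS at every time with either interferon.

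Against LPS at matching times, Cd40 and Icosl separated the treatments at every time. With IFN-beta 5 of 7 genes were lower than with LPS at 1 or more times, against 6.55% of all genes, and 2 were higher, against 8.31%. With IFN-gamma 3 were lower, against 6.19%, and 1 was higher, against 7.66%. Icosl was lower with IFN-beta by log2 differences of -2.19 at 1 h, -2.84 at 2 h, -2.66 at 4 h, -2.70 at 8 h and -2.32 at 24 h and with IFN-gamma by -1.91 at 1 h, -2.25 at 2 h, -2.26 at 4 h, -2.58 at 8 h and -2.30 at 24 h (highest adjusted p = 8.79e-16). No interferon array reached a BALB/c LPS array of Icosl. Cd40 differed by -1.57 at 2 h to -4.60 at 24 h with IFN-beta, and by -1.87 at 4 h to -2.59 at 8 h with IFN-gamma. The order was the other way early on for Cd274 and Cd86. At 2 h Cd274 read 11.90 and 11.89 with IFN-beta and 10.24 and 10.25 with LPS (1.65 ± 0.20, adjusted p = 3.54e-08). At 4 h Cd86 read 9.33 and 9.29 with IFN-beta and 7.57 and 7.43 with LPS (1.81 ± 0.17, adjusted p = 3.52e-11), and IFN-gamma was above LPS there too (1.10 ± 0.17, adjusted p = 3e-06). By 24 h IFN-beta was below LPS for Cd274 (-2.38 ± 0.20, adjusted p = 8.12e-13) and Cd86 (-1.71 ± 0.17, adjusted p = 7.62e-11), whereas IFN-gamma differed from LPS there by 0.07 for Cd86 (interval -0.28 to 0.41). Cd69 was lower with IFN-beta at 8 h (-2.96 ± 0.21, adjusted p = 2.58e-14) and 24 h (-3.62 ± 0.21, adjusted p = 6.35e-17). Cd69 was lower with IFN-gamma at 1, 4, 8 and 24 h, most at 8 h (-3.12 ± 0.21, adjusted p = 5.95e-15), and at 1 h the difference of -1.01 was -0.85 without replicate 2 of LPS, -0.99 without replicate 2 of IFN-gamma and with the array set as a covariate, and -0.96 on the scale of log2 of intensity plus 16.

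LPS dose was compared in C57BL/6 cells at matching times. At 50 against 0.5 ng/ml 4 of 7 genes were higher at 1 or more times, against 2.01% of all genes, and none was lower, against 1.75%. They were Cd40, Cd86, Cd274 and Cd69, and 1 of 35 differences was lower at an unadjusted p under 0.05. At 8 h Cd86 read 7.70 and 7.60 at 0.5 ng/ml, 9.01 and 9.08 at 5 ng/ml and 9.48 and 9.50 at 50 ng/ml. The 3 doses did not overlap, and 50 exceeded 0.5 ng/ml by 1.84 ± 0.17, adjusted p = 1.4e-10. Cd40 at 8 h read 11.42 and 11.47 at 0.5 ng/ml, 12.53 and 12.55 at 5 ng/ml and 12.46 and 12.50 at 50 ng/ml, so the lowest dose stood below the others (1.03 ± 0.25, adjusted p = 0.00266 for 50 against 0.5 ng/ml, and 0.97 and not called with each array centred on its median). Cd69 at 4 h read 9.87 and 9.85 at 0.5 ng/ml, 11.26 and 11.05 at 5 ng/ml and 11.44 and 11.92 at 50 ng/ml (1.82 ± 0.21, adjusted p = 1.35e-07). Cd274 was called at 4 h (1.10 ± 0.20, adjusted p = 0.000206). At 24 h none of the 4 was called, with differences of 0.54 for Cd40, 0.05 for Cd86, 0.31 for Cd274 and 0.23 for Cd69. Cd69 also differed at 1 h (1.24 ± 0.21, adjusted p = 0.000349), a value that was 0.87 without replicate 2 at 0.5 ng/ml, 0.92 without replicate 1 at 50 ng/ml, and 1.61 without replicate 1 at 0.5 ng/ml. Both groups of that comparison were among those whose wells stood apart, and with the compared arrays alone its adjusted p was 0.184. The call of Cd86 at 4 h (1.25) was 0.97 without replicate 2 at 50 ng/ml, and that of Cd40 at 4 h (1.09) was lost when either of 2 arrays was left out.

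At 5 against 0.5 ng/ml 3 genes were higher, against 1.15% of all genes, and none lower, against 1%. Cd86 differed by 1.39 ± 0.17, adjusted p = 1.24e-07 at 8 h, Cd69 by 1.30 ± 0.21, adjusted p = 0.000135 at 4 h and Cd40 by 1.10 ± 0.25, adjusted p = 0.00201 at 8 h. Cd40 was also called at 4 h (1.02), but without any 1 of the 4 arrays it was not. Of 35 differences 1 was lower at an unadjusted p under 0.05. At 50 against 5 ng/ml limma called none of the 7, where 0.234% of all genes were higher and 0.0903% lower. The 1 difference to pass the adjusted p there, under the minimum, was 0.72 for Cd86 at 4 h (interval 0.38 to 1.06, adjusted p = 0.0491). At an unadjusted p under 0.05, 6 of the 35 differences were higher and 3 lower. Without replicate 2 of 50 ng/ml at 1 h Cd274 was called there (1.24), against 0.72 with both arrays. Icosl was highest at 5 ng/ml by its means from 2 to 24 h. At 4 h it read 10.58 and 10.61 at 0.5 ng/ml, 10.87 and 10.78 at 5 ng/ml and 10.36 and 10.69 at 50 ng/ml, and the last pair overlapped the first. The differences of Icosl between doses were under the minimum at every time, although some passed the adjusted p. At 5 against 0.5 ng/ml these were 0.51 at 1 h, 0.56 at 2 h, 0.35 at 8 h and 0.68 at 24 h (highest adjusted p = 0.0371). At 50 against 0.5 ng/ml they were 0.52 at 1 h and 0.55 at 24 h (adjusted p = 0.00627 and 0.00191).

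**Figure D4:**
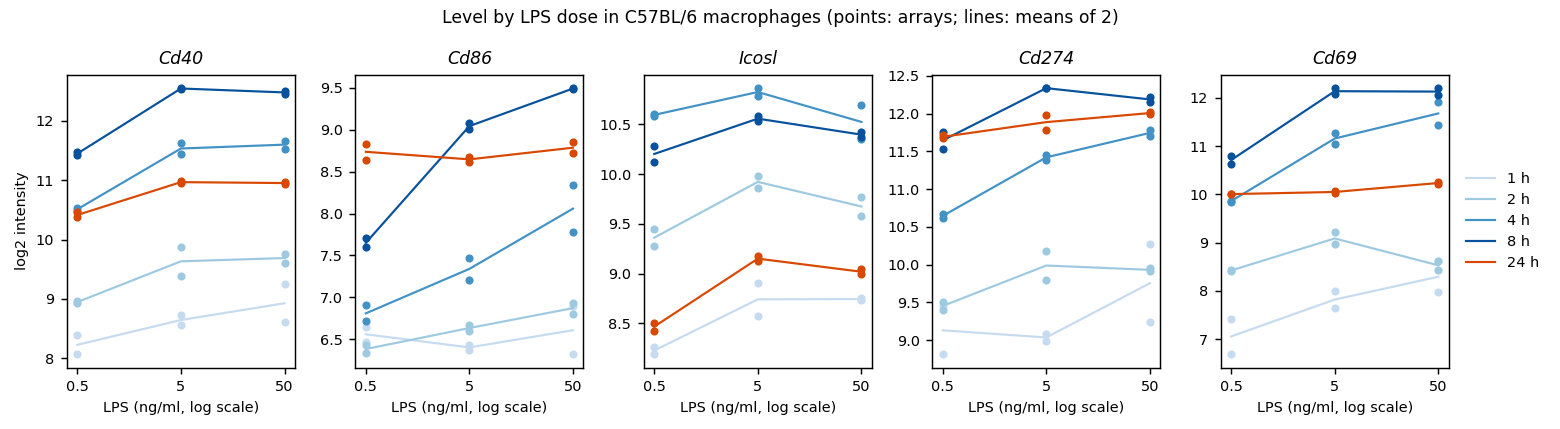
Log2 intensity (vertical axis) in C57BL/6 cells at 0.5, 5 and 50 ng/ml LPS (horizontal axis, log scale) for 5 of the genes, with a line per time. Points are arrays and lines join means of 2. The 8 h line of Cd86 climbed across all doses, while those of Cd40 and Cd69 levelled between 5 and 50 ng/ml and the 24 h lines of Cd86 and Cd69 were nearly flat.

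Over time in C57BL/6 cells, 5 of 7 genes were higher at 8 h than at 1 h at each dose, against 2.74% of all genes at 0.5 ng/ml, 4.68% at 5 ng/ml and 4.23% at 50 ng/ml. They were Cd40, Cd86, Cd274, Icosl and Cd69. At 5 ng/ml Cd69 read 12.07 and 12.21 at 8 h and 8.00 and 7.64 at 1 h (4.32 ± 0.21, adjusted p = 4.13e-19). Cd274 read 12.33 and 12.34 at 8 h and 9.08 and 8.99 at 1 h (3.30 ± 0.20, adjusted p = 7.2e-17). These pairs were far from overlapping. At 24 h against 8 h 2 genes were lower at 0.5 ng/ml (background 1.73%), 3 at 5 ng/ml (background 2.78%) and 3 at 50 ng/ml (background 3.03%). Icosl and Cd40 were lower at each dose, with Icosl differing by -1.73 at 0.5, -1.41 at 5 and -1.38 at 50 ng/ml. The 1 gene higher at 0.5 ng/ml (background 1.37%) was Cd86, with 8.64 and 8.83 at 24 h and 7.70 and 7.60 at 8 h (1.09 ± 0.17, adjusted p = 5.45e-06, and 0.99 without replicate 2 at 24 h). The lower call of Cd40 at 0.5 ng/ml was -1.03 and became -0.99 without replicate 2 at 24 h and -0.83 with the array set as a covariate.

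The C57BL/6 arrays at 0 h were high in 3 of the genes and, by group mean, in Cd274 as well. Against them 4 genes were higher at 0.5 ng/ml at 1 or more times (background 4.23%) and 3 lower (background 5.28%). At 5 ng/ml 5 were higher (background 6.09%) and 3 lower (background 8.87%), and at 50 ng/ml 5 were higher (background 6.43%) and 2 lower (background 9.16%). The lower calls fell at 1 and 2 h, with Cd69 at -1.72 and Cd40 at -1.39 at 1 h of 50 ng/ml (adjusted p = 0.122 and 0.196 with the compared arrays alone). The third gene called lower was Cd274 and not Cd86. At 1 h Cd274 differed by -1.11 at 5 ng/ml, which was -0.99 without replicate 1 at 0 h. At 0.5 ng/ml it differed by -1.015 at 1 h, which was -0.70 without replicate 2 of that group. Cd274 at 24 h differed from those arrays by 1.55 at 0.5 ng/ml, 1.74 at 5 ng/ml and 1.86 at 50 ng/ml.

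Strains were compared under LPS at 5 ng/ml. At matching times after treatment 1 of 7 genes was higher in BALB/c than in C57BL/6 cells, against 3.61% of all genes, and none was lower, against 2.05%. That gene was Cd40 at 1 h, with 10.00 and 9.73 in BALB/c and 8.73 and 8.56 in C57BL/6 (1.22 ± 0.25, adjusted p = 0.000574). At 8 h the strains differed by 0.12 for Cd40 (interval -0.39 to 0.63), 0.17 for Cd86 (-0.18 to 0.51), -0.03 for Cd274 (-0.43 to 0.37) and -0.02 for Icosl (-0.26 to 0.21). Cd69 read 11.51 and 11.60 in BALB/c and 12.07 and 12.21 in C57BL/6 at 8 h (-0.59 ± 0.21, adjusted p = 0.0637), without overlap, and differed by -0.69 ± 0.21 at 24 h (adjusted p = 0.0328, under the minimum). Icosl differed under the minimum at 1 h (0.91 ± 0.12, adjusted p = 1.82e-07) and 24 h (0.85 ± 0.12, adjusted p = 9.69e-07). Without replicate 1 of BALB/c LPS at 1 h, 4 differences in place of 1 were called, the others being Cd274 (1.10), Icosl and Cd69 at 1 h. At an unadjusted p under 0.05, 4 of 35 differences were lower in BALB/c. At 0 h 4 of 7 genes were lower in BALB/c, against 1.26% of all genes, and none higher, against 1.1%. Cd40 read 6.21 and 6.37 in BALB/c and 10.41 and 10.22 in C57BL/6 arrays. Cd69 differed by -5.10 ± 0.21, adjusted p = 3.53e-20, Cd40 by -4.02 ± 0.25, adjusted p = 2.62e-15, Cd86 by -1.19 ± 0.17, adjusted p = 1.57e-06 and Icosl by -1.17 ± 0.12, adjusted p = 6.15e-10. Cd274 differed by -0.99, just under the minimum, while Cd80 (0.05) and Pdcd1lg2 (0.15) did not pass. No gene was higher at an unadjusted p under 0.05 (0 of 7).

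The change of BALB/c minus that of C57BL/6 cells was tested as an interaction. Counted from 0 h, 5 genes had the higher change in BALB/c at 1 or more times, against 3.34% of all genes, and none the lower, against 1.51%. Counted from 1 h, so that the 0 h arrays play no part, none was higher, against 1.52%, and 3 were lower, against 2.21%. For Cd69 at 8 h the value was 4.51 from 0 h and -1.58 from 1 h (adjusted p = 0.000602). For Cd40 at 24 h it was 4.01 from 0 h and -1.23 from 1 h (adjusted p = 0.0373), and for Icosl at 4 h 0.77 from 0 h and -1.32 from 1 h (adjusted p = 1.69e-06). The sign of the strain difference in response turned with the time it was counted from in these 3 genes. The 1 h arrays were themselves under LPS, and BALB/c already stood above C57BL/6 there in each of the 3. At 1 h Cd69 differed by 0.99 and Icosl by 0.91, both under the minimum, and Cd40 had means of 9.86 in BALB/c and 8.64 in C57BL/6. A lower change from 1 h therefore holds that early strain difference as a term. At an unadjusted p under 0.05, 0 of 35 differences were lower from 0 h and 0 of 28 higher from 1 h. The call of Icosl was not made from 0 h at 4 h, where its difference was under the minimum.

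**Figure D5:**
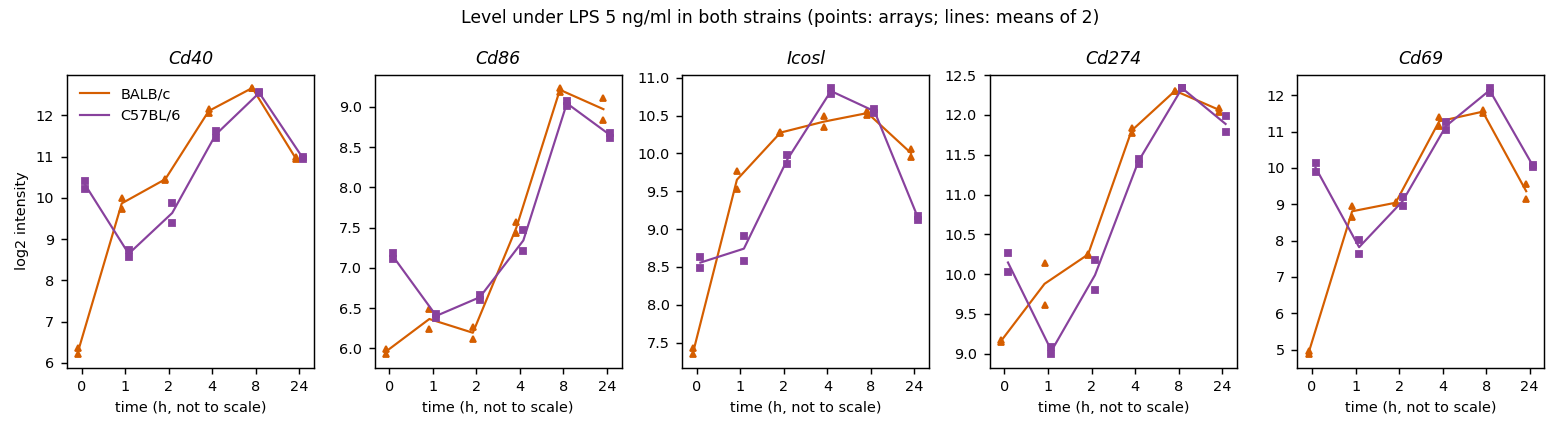
Log2 intensity (vertical axis) under LPS at 5 ng/ml in BALB/c and C57BL/6 cells by time in hours (horizontal axis, not to scale) for 5 of the genes, with the 0 h arrays of each strain at the left. Points are arrays and lines join means of 2. The strains lay 5.10 log2 apart for Cd69 and 4.02 for Cd40 at 0 h and no gene shown differed by more than 0.85 log2 between them from 2 h on.

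Over the 32 group means the 7 genes moved together to different degrees, as a description of points that share 0 h wells, treatments and arrays. Pearson's r was 0.90 between Cd40 and Cd69, 0.80 between Cd86 and Cd274 and 0.75 between Cd40 and Icosl. It was 0.18 between Icosl and Cd274 and -0.64 between Cd80 and Cd86. The genes whose group means were most like each member were Nod2, Clic4 and Med13 for Cd40 (r from 0.92 to 0.91), Tapbpl, Nmi and Mlkl for Cd86 (0.95 to 0.94) and Gprc5a, Gpcpd1 and Extl2 for Cd80 (0.85 to 0.84). For Cd274 they were the guanylate-binding proteins Gbp5 and Gbp3 and the IL-15 receptor chain Il15ra (0.95 to 0.94), and for Pdcd1lg2 Gbp8, Gbp4 and H2-DMa (0.87 to 0.83). For Icosl they were Zfp263, the bacterial lipoprotein receptor Tlr2 and the scavenger receptor Olr1 (0.96 to 0.95), and for Cd69 the chemokine Cxcl10, Sav1 and Zfp800 (0.92 to 0.90).

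Of 15 other B7 family and checkpoint ligands measured, 2 rose with IFN-beta, 1 rose and 2 fell with IFN-gamma, and 4 rose and 3 fell with LPS in BALB/c cells. The shares of all genes are those given above for these courses. Tnfrsf14, the ligand of BTLA, rose with IFN-beta at 8 h (1.08 ± 0.15), with IFN-gamma at 8 h (1.35 ± 0.15) and with LPS at 8 h (1.85 ± 0.15). Cd200, an inhibitory ligand of myeloid cells, rose with LPS at 8 h (2.93 ± 0.22, adjusted p = 2.38e-14) and fell with IFN-gamma at 24 h (-1.27 ± 0.22). Cd276 fell there as well (-1.38 ± 0.18). Pvr and Nectin2, ligands of TIGIT, rose with LPS at 4 h (2.53 ± 0.11) and 24 h (2.14 ± 0.18). Among 12 TNF superfamily and other co-stimulators 4 rose with IFN-beta, 5 rose and 1 fell with IFN-gamma, and 8 rose and 2 fell with LPS. Tnfsf15, the ligand of DR3, rose with LPS at 4 h (5.58 ± 0.32) and with IFN-beta at 4 h (2.64 ± 0.32). Tnfsf8 rose with IFN-beta at 4 h (2.97 ± 0.23), Slamf1 rose with LPS at 8 h (4.505 ± 0.22) and Cd24a fell with IFN-gamma at 24 h (-2.05 ± 0.18). Tnfsf9, the ligand of 4-1BB, rose with LPS at 1 h (5.36 ± 0.23, adjusted p = 2.11e-20), and Icam1, an adhesion ligand of T cells, with IFN-gamma at 8 h (2.09 ± 0.11). Of 9 CD40 signal adaptors, the TRAF and non-canonical NF-kB genes, 7 rose with LPS, 3 with IFN-beta and 0 with IFN-gamma, where 22 of 45 gene-by-time differences were higher at an unadjusted p under 0.05. Traf1 rose by 4.10 ± 0.19 and Nfkb2 by 2.79 ± 0.16 at 8 h of LPS, and Traf1 by 1.12 ± 0.19 at 8 h of IFN-beta. Of 5 receptors of these ligands Cd28 was called, lower with LPS at 24 h (-3.44 ± 0.20) and with IFN-gamma at 8 h (-1.06 ± 0.20), higher with IFN-beta at 24 h (1.21 ± 0.20). Against the C57BL/6 arrays at 0 h, Cd28 differed at 8 h by -1.11 at 0.5, -2.15 at 5 and -2.38 at 50 ng/ml. Which cells held Cd28 was not tested. The median difference from 0 h at 8 h was 0.13 with IFN-beta, -0.09 with IFN-gamma and 0.11 with LPS over the B7 list, 0.12 with IFN-beta, 0.23 with IFN-gamma and 1.22 with LPS over the TNF list, and 0.65 with IFN-beta, 0.56 with IFN-gamma and 1.75 with LPS over the adaptors, against -0.02, -0.04 and -0.04 over all genes in the same 3 courses.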

How the data were processed

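Each well gave 1 Affymetrix array, and the deposited values are probe set intensities on a linear scale, from 2.49 to 17782, with array medians from 25.6 to 29.0. Per the submitters' processing notes the software was Affymetrix Expression Console 1.1; background correction, summarisation and normalization are not given in the sources used here. Depth does not apply to arrays, and 2 arrays per group limit the precision.

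The log2 of the deposited intensity was taken with no further scaling. Of 35556 probe sets 21218 carry 1 symbol and 1881 several, and those with several were not used. The brightest probe set per gene left 18820 genes. All 64 arrays were fitted with 1 mean per group in limma 3.58.1 (R 4.3.3; tables were read with version 1.17.8 of data.table), with Benjamini-Hochberg adjustment over all genes for each contrast, and a call needed an adjusted p under 0.05 and 1 log2. The procedure was tested on simulated data.

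The 7 genes, the lists and the tests were chosen with earlier results of these data known. Genes named beside them are, by rule, up to 4 called list members per course with the largest difference, and the 3 genes whose group means correlated most with each of the 7. Array sets were read from the 12457 probe sets that name no gene: the leading component of the differences between the wells of a group there held 11.4% of their variance. Replicate numbers were taken only to name samples. The correlation of replicate differences between groups had a median of 0.0046 (-0.47 to 0.55), which cannot exclude pairing among some groups.

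Alternatives were other scalings, filters, probe set rules and fits, a replicate block, the array set, leaving out each array, and changes counted from 1 h.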

Additional observations from a re-analysis of the deposited data

Results flagged for a closer look

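The strains' responses to LPS at 5 ng/ml were compared by the interaction test, BALB/c change minus C57BL/6 change, each counted from 0 h. So counted, 5 of the 7 genes had the higher change in BALB/c, against 3.34% of all genes. The largest difference of Cd69 was 6.09 log2 at 1 h (limma, adjusted p = 2.52e-17), of Cd40 5.25 at 1 h (adjusted p = 2.02e-13), of Icosl 2.08 at 1 h (adjusted p = 9.88e-12), of Cd274 1.83 at 1 h (adjusted p = 2.05e-05) and of Cd86 1.51 at 24 h (adjusted p = 4.53e-05). Each of them has the C57BL/6 arrays at 0 h as a term, in which Cd69 and Cd40 lay above both arrays of every dose at 1 and 2 h. At matching times under LPS only Cd40, at 1 h, was called between the strains (backgrounds 3.61% higher and 2.05% lower in BALB/c). Counted from 1 h, none of the 7 had the higher change in BALB/c (background 1.52%) and 3 had the lower (background 2.21%). The differences at 24 h counted from 1 h were -1.68 for Cd69 (adjusted p = 0.000313), -1.23 for Cd40 (adjusted p = 0.0373), -0.06 for Icosl, -0.66 for Cd274 and 0.36 for Cd86. The cause of the 0 h levels was not tested.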

How the results depend on the processing

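For the 7 genes, 581 differences were recomputed under each alternative. All 581 kept their direction and their side of the threshold with each gene's probe sets averaged, with every probe set tested and with limma's trend and robust options, as did all 498 differences left without dim genes and all 448 left without the 5 pairs of arrays that stood apart. A replicate block kept all 581 as well and changed no call. Centring lost 3 calls and added 3, quantile normalization added 3, log2 of intensity plus 16 lost 8, fitting only the arrays compared lost 8, the array set as a covariate lost 4, and the larger array set alone lost 9 of 560 and added 2. The larger set holds no IFN-beta array at 4 h, so differences with that group, among them the tops of Cd274 and Cd69, could not be recomputed in it. Leaving out 1 array lost 31 and added 21 of 2464.

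Some counts of calls moved. Centring gave 2 higher calls for IFN-gamma against LPS in place of 1, and only the arrays compared gave 1 lower call at 50 ng/ml against 0 h in place of 3. The array set as a covariate left 0 lower calls at 8 h against 1 h, and the larger array set alone left 0 lower calls there and 0 higher calls at 24 h against 8 h, in place of 1 each. With no minimum change 97 differences were added. Higher calls then were 5 for IFN-beta against IFN-gamma, 6 for IFN-beta and 4 for IFN-gamma against LPS, 8 between strains, 10 at 0.5 ng/ml against 0 h, 12 for 5 against 0.5, 1 for 50 against 5 ng/ml and 4 at 24 h against 8 h. Lower calls were 9 for IFN-beta against IFN-gamma, 1 for BALB/c LPS, 8 at 0.5 and 6 at 5 ng/ml against 0 h, 1 each for 50 and 5 against 0.5 ng/ml, 2 between strains and 6 at 8 h against 1 h.

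Leaving out each array gave 15 to 15 higher calls for IFN-beta, 18 to 21 for IFN-gamma and 22 to 22 for LPS in BALB/c. Ranges were 2 to 4 higher and 4 to 5 lower for IFN-beta against IFN-gamma, 3 to 3 and 14 to 15 for IFN-beta against LPS, 1 to 2 and 13 to 14 for IFN-gamma against LPS, 1 to 4 higher between strains, 4 to 5 lower between strains at 0 h and 20 to 23 in the strain response. In C57BL/6 cells they were 6 to 6 higher and 4 to 5 lower at 0.5 ng/ml, 12 to 12 and 2 to 4 at 5 ng/ml, 12 to 13 and 2 to 3 at 50 ng/ml, 4 to 6 for 5 against 0.5, 6 to 9 for 50 against 0.5 and 0 to 1 for 50 against 5 ng/ml. At 8 h against 1 h they were 24 to 25 higher and 0 to 1 lower, and at 24 h against 8 h 0 to 1 higher and 14 to 16 lower.

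Counting changes from 1 h in place of 0 h is a different quantity and turned 26 of 196 differences. Over 2 to 24 h the calls became 6 higher and 3 lower with IFN-beta, 11 and 1 with LPS in BALB/c, 15 and 0 at 0.5 ng/ml, 0 lower at 50 ng/ml, and 0 higher and 4 lower for the strain response. With IFN-beta at 24 h Cd274 was -1.55, Cd40 -1.83 and Cd69 -3.34, and Cd69 was -0.49 at 8 h and, with IFN-gamma, -0.33 at 24 h. In C57BL/6 cells at 0.5 ng/ml Cd40 was 0.72 at 2 h and Cd69 was 1.37, 2.81 and 2.95 at 2, 4 and 24 h. Cd69 at 2 h was 1.27 at 5 and 0.24 at 50 ng/ml. For the strain response at 2, 4, 8 and 24 h Cd69 was -1.03, -0.86, -1.58 and -1.68, Cd40 was -0.40, -0.65, -1.10 and -1.23, and Icosl was -0.56, -1.32, -0.93 and -0.057. Cd274 was -0.58, -0.46 and -0.66 at 2, 4 and 24 h.

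Among all genes the counts of calls moved by over 1.5 times in 9 of 83 contrasts with log2 of intensity plus 16, in 14 with only the arrays compared, in 83 with no minimum change, in 4 of 80 with the larger array set, in 2 of 64 without the 5 pairs and in 9 of 28 counted from 1 h. The causes of these changes were not tested. Pdcd1lg2 lay under the dim limit in 38 of 64 arrays, which limits what its differences can show.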
